A study of Drosophila melanogaster with 2 samples.

Results

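The genes described here are the nuclear genes for the mitochondrial respiratory chain and ATP synthase of Drosophila melanogaster, chosen by name. They are the protein-coding genes whose symbol starts with ND-, Sdh, UQCR, COX or ATPsyn in Ensembl release 115 (BDGP6), 88 of 13986 protein-coding genes. The assay was ChIP-seq, which recovers the DNA a protein sits on, with an antibody against GFP in whole embryos of mixed sex aged 0 to 24 h. The labels' antibody field names CG4282 itself, while their description names GFP. All embryos came from 1 transgenic line that carries CG4282 with GFP at its carboxy terminus, and no other genotype or treatment was included. The 2 libraries, biological replicates 3 and 4, form 1 group with no control library among the samples. Conditions could therefore not be compared and no test over samples was possible. Chromatin was sonicated, with fragments of 200 to 800 bp. The protein mapped is the tagged one, and the labels do not state whether the untagged gene was still present.

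Electrons from NADH enter the respiratory chain at complex I (ND- genes) and those from succinate at complex II (Sdh genes). They pass through complex III (UQCR genes) to complex IV, cytochrome c oxidase (COX genes), and ATP synthase (ATPsyn genes) uses the proton gradient built on the way. A few core subunits are encoded in mitochondrial DNA. The rest are encoded in the nucleus and imported into mitochondria. Many of the fly's nuclear genes of this kind have a paralogue whose symbol adds an L to the subunit's name, in some cases followed by a digit, and several of these paralogues are known for expression in the testis. By symbol the 88 members were 63 subunit genes, 24 such paralogues and 1 assembly factor, Sdhaf3. ND-MNLL, whose last L is part of the subunit's own name, was counted as a subunit gene. By complex they were 40 ND-, 8 Sdh, 9 UQCR, 16 COX and 15 ATPsyn genes.

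Each file used was a list of peaks, in which every peak has a summit and a signal, the authors' own enrichment value without a stated unit. The optimal list, made by the irreproducible discovery rate (IDR), held 1985 peaks with signals from 66.9 to 1065.5. The pooled relaxed list and that of each replicate held 30000 peaks each. For each gene the strongest summit within 500 bp of one of its annotated transcription start sites was taken in each list. Scales differ between the replicate and pooled lists, so these are set against each other by rank, where rank 1 is the strongest peak. Optimal and pooled signals are set side by side. The highest was 1065.5 in the optimal list and also at protein-coding genes in the pooled list. A gene without such a summit has no value, which is not a signal of 0. The read depth behind the peaks is unknown. All coordinates are dm6 and 1-based.

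The 88 genes had optimal summits about as often as protein-coding genes in general. There were 10 of them with one, 11.4% (Wilson 95% interval, 6.29 to 19.7), and over all protein-coding genes the share was 11.4%, 1595 of 13986. A pooled relaxed summit was present at 50 of the 88 members, 56.8%, and at 51.4% of all protein-coding genes. Of those 50 members 20% had an optimal summit, against 22.2% of all protein-coding genes with a pooled summit. The median pooled signal was 44.0 over the 50 members and 39.5 over the 7189 protein-coding genes with a pooled summit. Intervals cover counting error over genes only.

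All 10 members with an optimal summit encode subunits of complex I or complex IV. They were ND-MWFE, ND-ASHI, ND-24, ND-51, ND-B17, ND-SGDH and ND-42 for complex I, and COX5A, COX6B and COX7B for complex IV. That is 7 of 40 ND- genes, 17.5% (Wilson 95% interval, 8.75 to 32.0), and 3 of 16 COX genes, 18.8% (6.59 to 43.0). With paralogues left out, 7 of 34 ND- genes, 20.6% (10.3 to 36.8), and 3 of 8 COX genes, 37.5% (13.7 to 69.4), had an optimal summit. No Sdh, UQCR or ATPsyn gene had one. A count of 0 of 8 Sdh genes allows a share of up to 37.5%, 0 of 9 UQCR genes up to 33.3% and 0 of 15 ATPsyn genes up to 20%. These limits all lie above the 11.4% of protein-coding genes, so a lower share in these complexes was not detectable with so few genes. No test between complexes was made.

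Over all pooled summits, the complexes were described by their medians and ranges. The median pooled signal was 46.5 for ND- genes (23 with a summit, 20.6 to 166.9) and 45.4 for COX genes (8 with a summit, 22.9 to 150.5). It was 43.1 for ATPsyn genes (10 with a summit, 30.2 to 61.7), 43.0 for Sdh genes (5 with a summit, 20.5 to 53.3) and 36.7 for UQCR genes (4 with a summit, 28.1 to 49.7). The ranges of all 5 complexes overlapped. The order of the complexes was not the same in the replicates. In replicate 3 the median rank was 2596 for COX, 4916 for UQCR, 5852 for ATPsyn, 7727 for Sdh and 8881.5 for ND- genes. In replicate 4 it was 3538 for ND-, 4103 for COX, 7208 for ATPsyn, 8253 for Sdh and 12080 for UQCR genes. The ND- genes with a summit thus had the weakest median of the 5 in replicate 3 and the strongest in replicate 4. Each median is over the genes with a summit in that replicate, so the sets differ. They were 24 ND-, 5 Sdh, 5 UQCR, 9 COX and 11 ATPsyn genes in replicate 3. In replicate 4 they were 22 ND-, 5 Sdh, 4 UQCR, 7 COX and 10 ATPsyn genes. Over all protein-coding genes the median rank was 6116 in replicate 3 and 6788.5 in replicate 4.

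**Figure D1:**
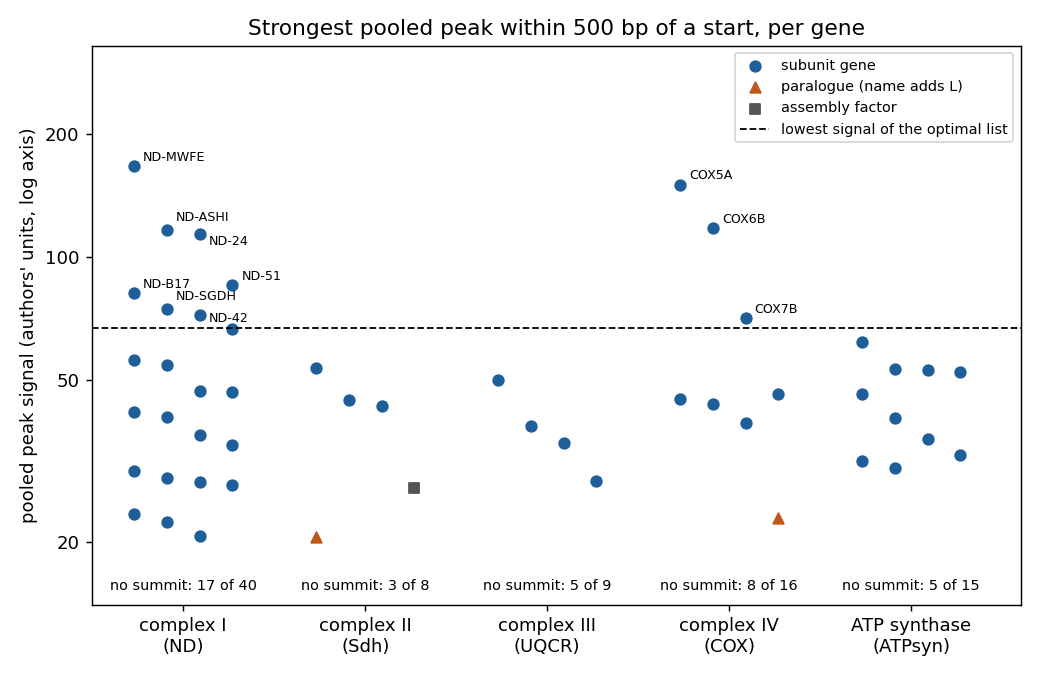
Strongest pooled peak within 500 bp of a start for each member, by complex. The y axis is the deposited signal on a log scale, each point is 1 gene, and genes without a pooled summit are counted at the bottom. The 10 named genes lie above the dashed line at 66.9, the lowest signal of the optimal list, and belong to complex I and complex IV.

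The paralogues hardly appeared in any list. Of the 24, 0 had an optimal summit, which allows a share of up to 12.5%, and 2 had a pooled one, COX4L (22.9, rank 23819) and SdhBL (20.5, rank 29641). In replicate 3 there were 4 of 24 with a summit, and in replicate 4 there were 0. Over all protein-coding genes the share was 11.4% for an optimal summit and 51.4% for a pooled one. It was 52.1% in replicate 3 and 49.0% in replicate 4. The subunit genes had a pooled summit in 47 of 63 cases, 74.6%, and an optimal one in 10, or 15.9% (Wilson 95% interval, 8.86 to 26.8). Among the 30 members with no summit in any of the 4 lists, 20 were paralogues and 10 were subunit genes. The subunit genes among them included COX4, ND-49 and UQCR-11. Another 8 members had no pooled summit but one in a replicate list, among them SdhA, ATPsynO and UQCR-6.4. By arm, the 10 members with an optimal summit were 3 of the 13 on X, 2 of 16 on 2L, 1 of 17 on 2R, 2 of 20 on 3L, 2 of 20 on 3R and 0 of 2 on chromosome 4. No share per arm was counted over all protein-coding genes.

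In complex I the highest signal was at ND-MWFE (FBgn0085468, 2R, 13158666 to 13160190, plus strand), which encodes a small subunit of the membrane arm. Its signal was 79.1 in replicate 3 (rank 228) and 87.1 in replicate 4 (rank 367), and 166.9 in the pooled list (rank 275). Only 3.70% of the protein-coding genes with a pooled summit had a peak ranked as high. The summit lay 146 bp upstream of the ND-MWFE start and 75 bp from that of TppII, a tripeptidyl peptidase gene on the opposite strand.

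ND-ASHI, ND-B17 and ND-SGDH also encode subunits of the membrane arm. ND-ASHI (FBgn0029888, X, 6677262 to 6679118, minus strand) had a signal of 52.1 in replicate 3 (rank 596), 64.5 in replicate 4 (rank 763) and 116.6 in the pooled list (rank 645). Its summit lay 251 bp upstream of the nearest ND-ASHI start and 271 bp from a start of Fum1, on the other strand. Fum1 encodes fumarase, the enzyme of the tricarboxylic acid (TCA) cycle that acts on the product of succinate dehydrogenase. ND-B17 (FBgn0001989, 2L, 15749319 to 15751078, minus strand) had one of 23.4 in replicate 3 (rank 2573), 62.8 in replicate 4 (rank 821) and 81.4 in the pooled list (rank 1339). ND-SGDH (FBgn0011455, 3L, 12137496 to 12138584, minus strand) had one of 41.7 in replicate 3 (rank 908), 33.0 in replicate 4 (rank 4153) and 74.5 in the pooled list (rank 1589). These last 2 thus ranked on opposite sides of 1985, the size of the optimal list, in the 2 replicates, and in opposite directions.

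ND-24 and ND-51 encode subunits of the matrix arm that takes electrons from NADH, and ND-51 carries the flavin. ND-24 (FBgn0030853, X, 17632089 to 17633509, plus strand) had a signal of 54.9 in replicate 3 (rank 526), 57.8 in replicate 4 (rank 982) and 114.1 in the pooled list (rank 669). Its summit was the only one of the 10 that lay downstream of the nearest own start, by 50 bp. ND-51 (FBgn0031771, 2L, 6060842 to 6062757, minus strand) had one of 31.7 in replicate 3 (rank 1509), 52.4 in replicate 4 (rank 1250) and 85.2 in the pooled list (rank 1210). Both were inside the strongest 1985 of each replicate.

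ND-42 (FBgn0019957, 3R, 22027709 to 22029393, plus strand), an accessory subunit of complex I, had a signal of 37.3 in replicate 3 (rank 1104), 38.0 in replicate 4 (rank 2803) and 71.9 in the pooled list (rank 1706). Its summit was 322 bp from the ND-42 start and 73 bp from that of Cchl, named for cytochrome c heme lyase, which attaches heme to cytochrome c.

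In complex IV the pooled signals were 150.5 at COX5A, 117.8 at COX6B and 70.8 at COX7B, all nuclear subunits placed around the core that mitochondrial DNA encodes. COX5A (FBgn0019624, 3R, 11819359 to 11820299, plus strand) had a signal of 53.2 in replicate 3 (rank 571) and 93.6 in replicate 4 (rank 313). Its summit lay 65 bp upstream of the start that 3 of its 4 annotated transcripts share, inside an intron of the transcript that starts further upstream. COX6B (FBgn0031066, X, 19740537 to 19744335, minus strand) had a signal of 53.0 in replicate 3 (rank 580) and 65.3 in replicate 4 (rank 734). It shares its nearest start with CG18809, 62 bp from the summit, so the 2 genes cannot be told apart there. COX7B (FBgn0040793, 3L, 17425477 to 17426282, plus strand) was the weakest of the 10 by pooled signal and lay outside the strongest 1985 of both replicates, with a signal of 23.4 in replicate 3 (rank 2596) and 41.7 in replicate 4 (rank 2181). In the pooled list it ranked 1756.

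Just below the limit of the optimal list was ND-15, a complex I subunit, with a pooled signal of 66.6 at rank 2001. It had 20.4 in replicate 3 (rank 3281) and 42.4 in replicate 4 (rank 2101). The next were ATPsynC (61.7, rank 2328), which encodes the c subunit of the rotor ring, and ND-20 (55.7, rank 2851). ATPsynC was the strongest of the ATP synthase genes, with 26.5 in replicate 3 (rank 2071) and 30.0 in replicate 4 (rank 5423). It was followed by ATPsynE (53.1), by ATPsynbeta (52.9), the catalytic subunit on the small chromosome 4, and by ATPsynD (52.2). In all, 10 of 15 ATPsyn genes had a pooled summit. ATPsynO had a summit in replicate 3 alone, at rank 18857.

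In complex II, pooled summits lay at both membrane anchor genes, SdhC (53.3, rank 3146) and SdhD (43.0, rank 5135), and at SdhB (44.6, rank 4691), the iron-sulfur subunit. SdhA, the flavoprotein, had no pooled summit and ranked 29655 in replicate 4, near the end of that list. Sdhaf3 was at 27.0, rank 16373. SdhAL and SdhCL had no summit in any list. SdhC had a signal of 20.1 in replicate 3 (rank 3365) and 39.8 in replicate 4 (rank 2460). SdhB ranked 7727 in replicate 3 and 4439 in replicate 4, and SdhD 6857 in replicate 3 and 8253 in replicate 4. All 3 were outside the strongest 1985 in each replicate. In complex III, UQCR-C1, a core subunit, had the highest pooled signal, 49.7 (rank 3659), ahead of UQCR-14 (38.5) and UQCR-C2 (34.9), the other core subunit. UQCR-C1 ranked 17454 in replicate 3 and 2496 in replicate 4, while UQCR-C2 ranked 2842 in replicate 3 and had no summit in replicate 4. The pooled list had a summit at 4 of 9 UQCR genes. Taking the strongest 5000 pooled peaks, 26 of the 88 members had one, 29.5% against 22.6% of protein-coding genes. These were 12 ND-, 2 Sdh, 1 UQCR, 6 COX and 5 ATPsyn genes, so the complexes without an optimal summit then held 8 genes with one.

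The optimal summits at these genes were mostly shared with a gene on the other strand. All 10 had a start of another gene within 500 bp, against 58.9% of the 1595 protein-coding genes with an optimal summit. In 9 of 10 it was a protein-coding start on the opposite strand, against 53.5%. The neighbour was TppII at ND-MWFE, glo (a repressor of translation) at COX5A, Rpp20 and CG33932 (which share 1 annotated start) at COX6B, and Fum1 at ND-ASHI. It was corolla (a gene of meiotic chromosome pairing) at ND-24, CG13994 at ND-51, RhoGAP68F at ND-SGDH, Cchl at ND-42, and Sec3, a subunit of the exocyst, at COX7B. The exception, ND-B17, had only the start of the small nuclear RNA gene snRNA:U5:35D, 496 bp away. The summit was nearer to the neighbour's start than to the member's own in 6 of 10 cases, most closely at Sec3, 13 bp away, against 273 bp for COX7B. Over the 1595 genes the own start was the nearest in 71.9%, against 4 of the 10 members, COX5A, ND-ASHI, ND-24 and ND-B17. The 10 summits lay a median of 147 bp from the own start (50 to 322 bp), 9 of 10 upstream of it, against a median of 104 bp and 81.8% upstream over the 1595 genes. Which gene of a pair a peak acts on was not measured.

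**Figure D2:**
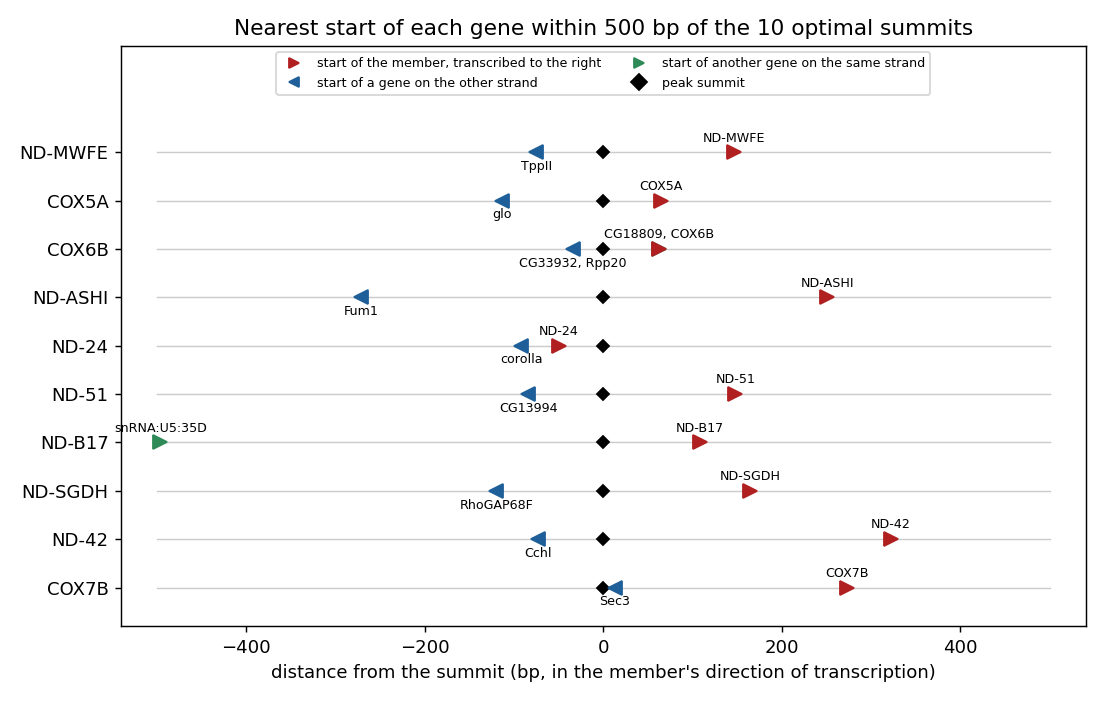
Starts within 500 bp of the optimal summits at 10 members, strongest at the top. The x axis is the distance from the summit in bp, turned so that the member is transcribed to the right, and for each gene only its start nearest the summit is drawn. At 9 of the 10 members a protein-coding gene on the opposite strand starts within 500 bp, and at COX7B the start of Sec3 lies 13 bp from the summit.

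Genes were then counted by whether they had such a neighbour. A head-to-head start was defined here as a protein-coding start on the other strand that lies upstream within 500 bp and points away. This count was added after the positions had been seen. Head-to-head starts were present at 39 of 88 members, 44.3%, and at 27.3% of protein-coding genes. Of the 39 members 9 had an optimal summit, 23.1% (Wilson 95% interval, 12.6 to 38.3), against 23.0% of the 3818 protein-coding genes with a head-to-head start. Without one it was 1 of 49 members, 2.04% (0.361 to 10.7), against 7.03% of 10168 protein-coding genes. Of these 49 members, 27 were subunit genes, which include ND-B17. Head-to-head starts were present at 36 of 63 subunit genes and 3 of 24 paralogues. By complex, 20 of 40 ND-, 1 of 8 Sdh, 2 of 9 UQCR, 7 of 16 COX and 9 of 15 ATPsyn genes had one. When each summit was given only to the gene with the nearest start, 4 of 88 members kept an optimal summit, 4.55%, against 8.39% of protein-coding genes.

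**Figure D3:**
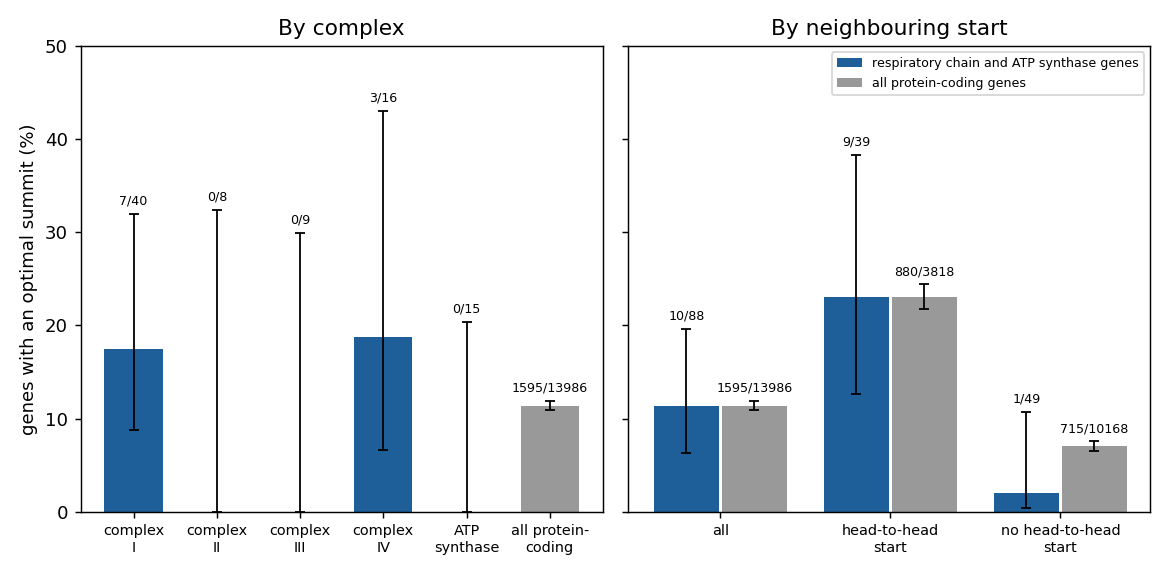
Percentage of genes with an optimal summit within 500 bp of a start. Bars give the share, error bars the Wilson 95% interval, and the numbers above them the genes with a summit over all genes of the group. Members and all protein-coding genes were at 11.4% each, and at 23.1% and 23.0% where a head-to-head start was present.

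Weaker summits at the members also lay near starts of other genes. Of the 40 with a pooled but no optimal summit, 20 had a protein-coding start on the other strand within 500 bp of it, against 30.4% of the 5594 such protein-coding genes. The own start was still the nearest in 26 of the 40, 65%, against 83.6% of the 5594. Examples where the neighbour's start was nearer are SdhC and Tctp, where the summit lay 351 bp from the SdhC start and 47 bp from that of Tctp. Another is ND-PDSW and msl-2, where it lay 72 bp from ND-PDSW and 27 bp from msl-2, a gene of dosage compensation. At ATPsynbeta the summit was 463 bp from its own start and 46 bp from that of CG11076. At COX5B it was 293 bp away, and 5 bp from IFT52. Summits close to an own start with no other start within 500 bp were also present, at SdhB (7 bp) and SdhD (39 bp). Optimal summits farther from the starts were also counted, but only for the members and not over all protein-coding genes. Among the 78 members without one within 500 bp, the nearest optimal summit was 577 bp to 2241805 bp away (median 13636 bp). Only COX7AL2 had optimal summits inside its annotated body beyond 500 bp of a start, 2 of them.

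Sequences are given for 4 of these summits, as examples of a start region shared by a pair of genes and, last, of the exception. Each is the genome sequence around the optimal summit that no annotated exon covers, at most 149 bp to either side of it, read on the member's strand. Capitals mark matches, on either strand, to CGATA (the core bound by the insulator protein BEAF-32), to Motif 7 (a core promoter element), to GGTCACAC (the core of Motif 1, another such element), to the core of the NRG element of nuclear mitochondrial genes (TTACGTAA, TTATATAA or TTACATAA) and to CCGGAA (the core bound by Ets proteins). GAGAG and TATAAA were searched too but not marked. The first, chrX:19744336-19744430 on the minus strand, is the whole gap between the starts of Rpp20 and COX6B. The second, chr2L:6062758-6062988 on the minus strand, is the whole gap between CG13994 and ND-51. The third, chr3L:12138599-12138867 on the minus strand, begins at RhoGAP68F and ends short of ND-SGDH. The fourth, chr2L:15751079-15751335 on the minus strand, lies upstream of ND-B17. All are from the RefSeq copy of the dm6 assembly.
COX6B: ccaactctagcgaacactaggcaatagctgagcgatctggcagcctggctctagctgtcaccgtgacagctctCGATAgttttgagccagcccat
ND-51: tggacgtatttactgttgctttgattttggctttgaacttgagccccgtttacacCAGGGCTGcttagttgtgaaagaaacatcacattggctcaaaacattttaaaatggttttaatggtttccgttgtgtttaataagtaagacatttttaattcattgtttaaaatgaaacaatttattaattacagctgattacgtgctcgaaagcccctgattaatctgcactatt
ND-SGDH: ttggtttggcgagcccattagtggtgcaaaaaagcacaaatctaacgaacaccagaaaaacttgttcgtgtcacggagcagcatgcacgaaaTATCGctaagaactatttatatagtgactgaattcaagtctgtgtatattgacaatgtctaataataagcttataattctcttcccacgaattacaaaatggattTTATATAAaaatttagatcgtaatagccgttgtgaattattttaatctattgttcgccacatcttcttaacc
ND-B17: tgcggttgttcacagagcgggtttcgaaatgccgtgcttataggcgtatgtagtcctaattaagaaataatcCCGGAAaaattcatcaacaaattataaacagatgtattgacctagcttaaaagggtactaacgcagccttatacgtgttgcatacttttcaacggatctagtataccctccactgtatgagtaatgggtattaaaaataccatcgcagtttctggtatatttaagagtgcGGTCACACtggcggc

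The start region of COX6B holds 1 BEAF-32 core, that of ND-51 1 match to Motif 7, that of ND-SGDH a BEAF-32 core and an NRG core, and that of ND-B17 an Ets core and a Motif 1 core. None of the 4 stretches holds the DRE (TATCGATA, which contains the BEAF-32 core), CACAGTGG, CAACACTG, CACGTG or CGCANGCG. The stretch at COX5A, which is not shown, had no marked match. Within 50 bp of the summit, 3 of the 10 members with an optimal summit had the BEAF-32 core (COX6B, ND-24 and ND-SGDH), against 28.7% of the 1595 protein-coding genes with one. Motif 7 was there in 3 of 10 (COX5A, ND-51 and ND-MWFE), against 15.8%. It was searched as CAGCNCTA, CAGCNCTG, CATCNCTA and CATCNCTG. The DRE was in 0 of 10, against 6.90%, and CACAGTGG in 0 of 10, against 3.95%. CAACACTG was in 1 of 10, COX6B, against 5.77%. The other motifs marked in the stretches were not found this close to a summit. The Motif 1 core was in 0 of 10, against 2.51%, the NRG core in 0 of 10, against 0.94%, and the Ets core in 0 of 10, against 2.57%. Over the 50 members with a pooled summit the DRE was in 2, at SdhC and COX4L, against 4.34% of protein-coding genes. At 10 members, 1 gene more or less moves a share by 10 percentage points.

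The same letters were counted in promoters, taken as the 250 bp before and 50 bp after the gene's start. These counts are a description, with no test. Motif 7 was in 24 of 63 subunit genes, 0 of 24 paralogues and 19.1% of 13945 protein-coding genes on the large arms and chromosome 4. The Motif 1 core was in 15 of 63 subunit genes, in 1 of 24 paralogues and in 7.71% of protein-coding genes. Among the 15, only COX5A, COX7B, ND-MWFE and ND-B17 had an optimal summit. The DRE was in 9 of 63 subunit genes, 0 of 24 paralogues and 9.37% of protein-coding genes. None of the 9, which include COX4, ND-15 and UQCR-14, had an optimal summit, against 15.9% of the 63 subunit genes and 11.4% of protein-coding genes. Both shares are over genes with or without the DRE, and the share over protein-coding genes with it was not counted. With 9 genes a lower share was not detectable. The NRG core was in 5 of 63 subunit genes and in 5.18% of protein-coding genes. The 5 were ND-42 and ND-SGDH, with an optimal summit, and ND-30, ND-49 and ND-MNLL, without one. The Ewg core (CGCANGCG) was in 0 of 88 members and 2.78% of protein-coding genes, and the Ets core in 4 of 88 and 6.81%. The E-box CACGTG was in 4 of 88 members and 4.24% of protein-coding genes, GAGAG in 20 of 88 and 29.8%, and TATAAA in 49 of 88 and 45.9%. A match is not a binding site.

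The replicates placed most of the 10 high, and the weaker ones apart. The strongest 1985 peaks of replicate 3 took in 8 of the 10, those of replicate 4 took in 7, and 6 were in both. These 6 were ND-MWFE, COX5A, COX6B, ND-ASHI, ND-24 and ND-51. Of all 88 members, replicate 3 placed 9 that high, 10.2% against 11.6% of protein-coding genes. Replicate 4 placed 8 there, 9.09% against 11.3%. ND-SGDH, ND-42 and COX8 were there in replicate 3 only, and ND-B17 and ND-ACP in replicate 4 only. COX8 had a signal of 34.5 in replicate 3 (rank 1298) and 21.8 in replicate 4 (rank 13670). ND-ACP, the acyl carrier protein of complex I, had 10.1 in replicate 3 (rank 13314) and 47.3 in replicate 4 (rank 1579). Neither had an optimal summit within 500 bp. The pooled list was made from both replicates, so the ranks in it and in the replicates are not independent. The optimal list was derived from these lists by IDR, so high ranks of the 10 in both replicates follow in part from how they were chosen.

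**Figure D4:**
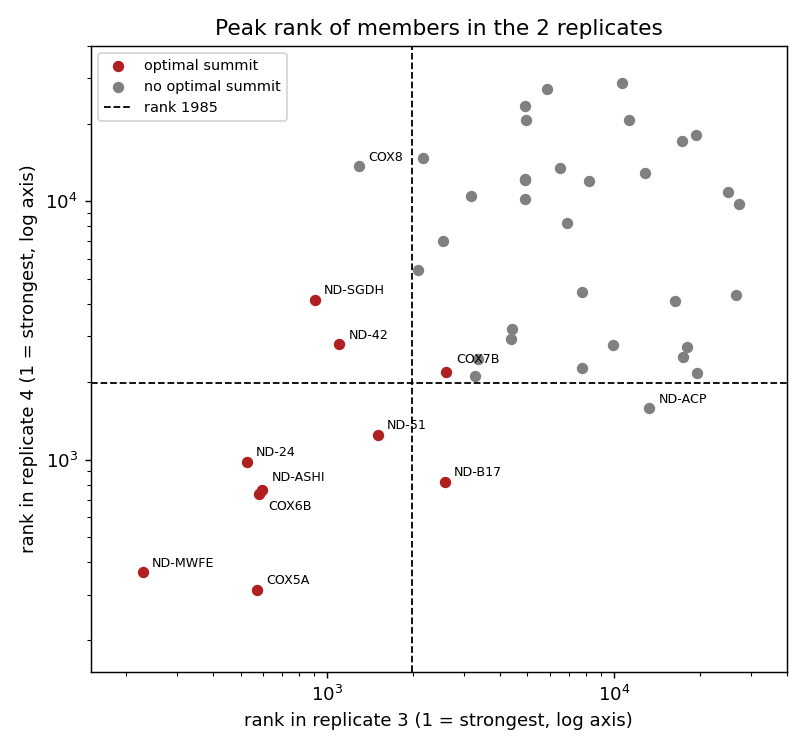
Rank of the strongest summit within 500 bp of a start in replicate 3 (x axis) and replicate 4 (y axis), both log axes, for the 44 members with a summit in both. Dashed lines mark rank 1985. The 6 members in the lower left rectangle all have an optimal summit, and COX7B is the red point outside both lines. The optimal list was itself derived from the relaxed lists by IDR.

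Related genes outside the naming rule were described by lists chosen with earlier results of these data known. Of the 51 genes listed 48 were matched by symbol (Pet100, Nc73EF and Twinkle were not), and 11 of these, 22.9%, had an optimal summit, against 11.4% of protein-coding genes. A head-to-head start was present at 24 of the 48, against 27.3% of protein-coding genes, and its part in this share was not tested. Because of how the lists were chosen, the 22.9% cannot be read as an excess. Among other genes of the respiratory chain and its assembly or carriers, 3 of 14 had one. These were CIA30, an assembly factor of complex I (262.4, rank 105), Cyt-c-d, a cytochrome c gene (113.8, rank 672), and levy, a subunit of complex IV (93.8, rank 992). CIA30 ranked 88 in replicate 3 and 128 in replicate 4, above every one of the 88 members in each list. RFeSP, the iron-sulfur protein of complex III, had no pooled summit, and ranked 4298 in replicate 3 and 18747 in replicate 4.

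In the TCA cycle 4 of 14 genes had an optimal summit. They were Fum1, by the summit it shares with ND-ASHI, mAcon1 (102.3), an aconitase, and Idh3b (77.4) and Idh3g (74.2), which encode subunits of isocitrate dehydrogenase. Among genes for mitochondrial DNA and its upkeep it was 2 of 12, Lon (371.0, rank 46), a mitochondrial protease, and mtSSB (101.7), which binds single-stranded DNA. Lon ranked 46 in each replicate as well. Among the 8 regulators it was 2, Dref (148.6), which encodes the DRE-binding factor, and ERR (67.8), a nuclear receptor that acts on metabolic genes. The others, ewg, Ets97D, srl, Myc, cnc and foxo, had none. The optimal summits at genes of these lists lay 41 bp (Dref) to 388 bp (Cyt-c-d) from the gene's own start. Apart from Fum1, which other genes start near these summits was not examined. Lists this short, and chosen as they were, allow no comparison with the 88 members or with protein-coding genes in general.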

How the data were processed

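Peaks from ChIP-seq with an antibody against GFP in 2 replicates of CG4282-GFP embryos were taken as deposited. Per the deposited file listing, each relaxed list was made from dm6 alignments and 1 control file, for each replicate and for both pooled, and the optimal list was derived from these by IDR. The authors' signal per peak has no stated scale, and the deposited −log10 q value was not used. The sources used here name no aligner, caller or IDR cutoff. Lists in dm3 were not used.

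Genes and starts are from Ensembl release 115, without transposable elements, and sequence is from the RefSeq assembly of the same release 6 arms. Every pooled peak on the major arms ended within the length of its arm. Summits within 500 bp of any annotated start were assigned to every such gene with Python 3.11.15, numpy 2.4.6, pandas 2.3.3 and scipy 1.17.1. The assignment was tested on simulated data. Shares have Wilson 95% intervals, and the limit for a count of 0 is 3 counts of the total. Members and lists were chosen with earlier results of these data known. Named genes are members with an optimal summit, the 3 strongest of each prefix, those just below the optimal threshold, those in the strongest 1985 of 1 replicate only, all Sdh genes, and related genes with an optimal summit. Others were named after their values were seen. No test was made, because there is 1 group and genes of a list are not replicates. Alternatives were other start windows (250 and 1000 bp), other peak sets, single replicates, other gene assignments and other motif windows (25 and 100 bp to either side of the summit in place of 50).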

Additional observations from a re-analysis of the deposited data

How the results depend on the processing

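With single replicates (the strongest 1985 peaks of 1 replicate alone), the number of members with a summit was 8 to 9, 6 for ND- genes with either, 2 to 3 for COX genes and 0 for Sdh, UQCR and ATPsyn genes. Over all protein-coding genes the share was 11.6% with replicate 3 and 11.3% with replicate 4. Start windows of 250 and 1000 bp gave 7 and 12 members, against 9.50% and 13.3% of protein-coding genes. The wider window gave 5 COX genes, adding COX8 and COX7AL2. The stronger part of the optimal list (992 peaks) kept 5 members, of which 3 were ND- genes, against 6.22% of protein-coding genes. The strongest 5000 pooled peaks gave 26 members, 29.5% against 22.6% of protein-coding genes. They were 12 ND-, 2 Sdh, 1 UQCR, 6 COX and 5 ATPsyn genes. With each summit given only to the nearest gene, 4 members remained, 4.55% against 8.39% of protein-coding genes. They were 3 ND- genes and 1 COX gene. With a peak interval that overlaps the start by at least 1 bp there were 7 members, 7.95% against 8.38% of protein-coding genes. With the gene's 5' end as the only start there were 10, 11.4% against 10.03%. Pooled summits were found at 36 to 62 members over the alternatives tried for them, with no share counted over all protein-coding genes. The DRE was in the summit windows of 1 member with 25 bp and of 4 with 100 bp to either side, against 2 with 50 bp. For 25 and 100 bp the share over protein-coding genes was not counted either, so these counts cannot be set against it. The larger set of peaks and the narrower assignment change these counts by construction. No paired analysis was possible because there is only 1 group. Counts of 0 among 8 to 15 genes limit what can be said of complexes II and III and ATP synthase.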
